A study of Mus musculus with 6 samples.

Results

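The CD8SP iT cells described here are spleen T cells that carry the CD8 coreceptor and that grew in mice from transplanted, stem cell-derived blood progenitors. The population is represented by 3 RNA-seq libraries of 1000 sorted cells each, and its member genes were chosen as those at 1 TPM or more in all 3 libraries. This gave 9528 member genes of the 23420 rows in the expression table (40.7%). TPM, a length-scaled transcript abundance, corrects reads for gene length and gives every library the same nominal sum. Levels of different genes are set side by side below on that scale only. How well the scale ranks genes was not tested, and some rows may share reads with near-identical copies.

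The donor cells were induced hematopoietic progenitors from iR9 embryonic stem cells of the C57BL/6 strain, marked by CD45.2, with a doxycycline-inducible Runx1-p2a-Hoxa9 cassette in the Rosa26 locus. They were given without further doxycycline to irradiated B-NDG recipients of 8 to 10 weeks of age, a CD45.1 strain with the Prkdc scid mutation and no Il2rg, which makes no T, B or NK cells of its own but keeps myeloid cells. Spleen cells were sorted at week 5 by markers that included CD45.2+, Ter119-, CD11b- and CD8+, a gate that used neither CD44 nor NK1.1 and so did not separate naive from memory cells. The 3 CD4SP iT libraries, sorted from spleen in the same way on CD4, share the donor line, the cassette and the recipients and serve here only as a reference. The labels do not say whether the libraries came from separate mice, so p-values measure only the spread between these samples, which may be technical. Bulk libraries cannot tell fewer cells of a type from less RNA per cell.

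A CD8 T cell reads peptides on MHC class I molecules through its T cell receptor, with CD8 as coreceptor. Naive cells recirculate through lymphoid organs with the help of homing receptors such as CCR7 and live on IL-7. Memory and effector cells turn on chemokines such as CCL5, the transcription factors Eomes and T-bet, and the cytotoxic granule proteins perforin and granzymes, with which they kill target cells.

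The sorting label held against the defining genes. Cd8a, the coreceptor alpha chain (chromosome 6, 71373427 to 71379173 in GRCm38, protein coding), was at 1147, 1161 and 1038 TPM in CD8SP replicates 1 to 3 and at 2.93, 0.319 and 2.20 TPM in CD4SP replicates 1 to 3. Cd8b1, the beta chain (chromosome 6, 71322788 to 71337494), was at 2353, 2401 and 2197 TPM and ranked 83rd of all rows. Cd4 reached 0.104 TPM in CD8SP replicate 1, and the table lists it at 0 in both other CD8SP libraries. The coreceptor genes therefore separated the populations without overlap, as the gate did. The T cell receptor constant genes and mitochondrially encoded genes are not analysed here.

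Some genes that define other blood cells were listed at 0, and others were detected. Of 9 B cell genes in the table, Ms4a1, Pax5 and Ebf1 were listed at 0 in every CD8SP library, and the summed level of the list was 33.4 to 34.4 TPM, of which 57.6% was Cd79b. Of 10 myeloid genes, Itgam, S100a8, S100a9, Mpo and Csf3r were listed at 0, and Lyz2, the macrophage and granulocyte lysozyme, was at 8.33, 6.87 and 3.64 TPM. The remainder of that list's sum of 281 to 386 TPM was nearly all Cst3, a cystatin that many cells make. No gene of the 8 erythroid and platelet genes in the table reached 1 TPM. Of 10 NK cell genes, Ncr1, Itga2, Klra4 and Klra8 were listed at 0, and the list summed to 70.6 to 78.1 TPM, with Klre1 leading. Among 9 dendritic cell genes Itgax was the highest, at 18.0, 17.2 and 18.1 TPM, while Zbtb46 was listed at 0 and Flt3 was at 0.263 and 0.317 TPM in replicates 1 and 2 and listed at 0 in replicate 3. Among 10 thymocyte genes Rag2 and Ptcra were listed at 0 and Rag1 was at 0.156, 0.222 and 0.203 TPM. The gamma delta lineage factors Sox13 and Zbtb16 were listed at 0, and Cd163l1, a scavenger receptor of gamma delta T cells, was at 74.3, 76.9 and 56.0 TPM. The part of cells that may carry these detected genes in the results below was not tested.

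In replicates 1 to 3 the number of genes at the 1 TPM threshold or above was 10149, 10123 and 9971, and the depth behind them is unknown because TPM keeps none. Replicates 1 and 2 were closer to each other than either was to replicate 3, which also had the largest ribosomal protein share (37.1%, against 33.6% and 33.2%). No member had an identical value in replicates 1 and 2, and they were kept as separate samples, since agreement within sampling noise cannot be tested from TPM. CD4SP libraries had lower ribosomal protein shares, from 25.0% to 29.9%, and TPM of all other genes move against that share.

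Members carried 99.8% of all TPM. At the threshold, Zfp760 was just inside with 1.149, 1.002 and 1.248 TPM, and Ccdc14 just outside with 1.192, 0.9985 and 1.371 TPM. Another 1099 rows reached 1 TPM in only 1 or 2 of the libraries, and 11032 rows were listed at 0 in all 3. Of the members, 9148 were also at 1 TPM or more in all CD4SP libraries, which is 96.0% of the CD8SP members and 93.8% of the 9753 genes that met the rule in CD4SP libraries. The annotation held 9456 members, of which 9117 (96.4%) were protein coding, 181 were long noncoding RNA genes and 82 were microRNA or small nucleolar RNA genes.

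A small set of genes held most of the message. The 10 most abundant genes took 10.6% ± 0.226 (SD, n = 3) of TPM, the top 50 took 34.3% ± 1.44 (SD, n = 3) and the top 100 took 47.8% ± 2.03 (SD, n = 3). By mean level, 152 members lay at 1000 TPM or more and held 54.4% of TPM, 1062 lay between 100 and 1000 TPM, 5086 between 10 and 100 TPM, and 3228 below 10 TPM, the last holding 1.63%. The median member was at 18.2 TPM. The top 100 had a median longest transcript of 1088 nt, against 3211 nt over all members. Of the top 100 in each library, 89 genes were in the top 100 of all 3.

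**Figure D1:**
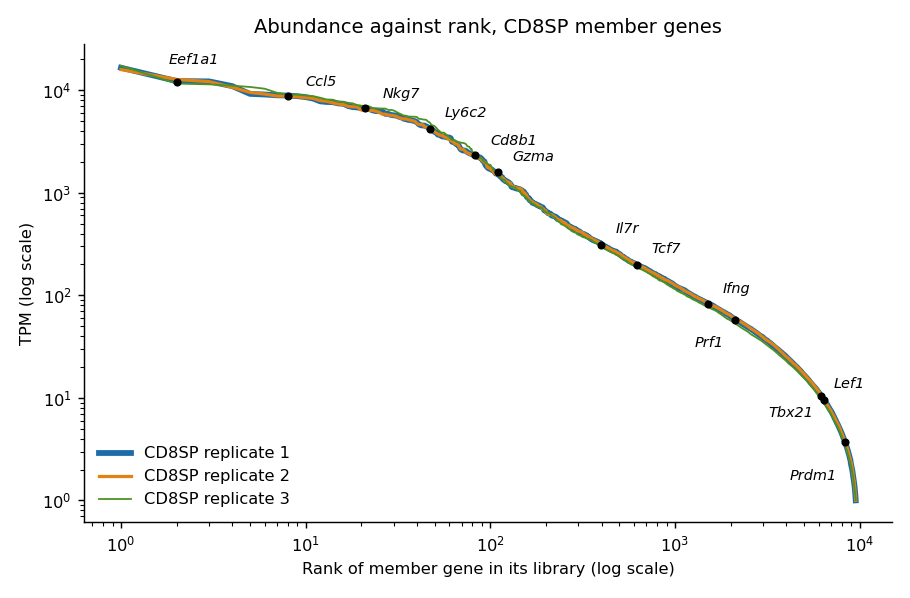
TPM against rank for the member genes of the 3 CD8SP libraries, both on log scales, with a line per library. Black points mark 13 genes at their mean level and at the rank of that mean among all rows. The 3 lines nearly coincide, from Eef1a1, Ccl5 and Nkg7 at the top to Prdm1 at rank 8369.

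Ribosomal protein genes led the list. Their 83 members took 34.7% ± 2.16 (SD, n = 3) of TPM and filled 37 of the top 50 and 67 of the top 100 places. Rplp1, an acidic stalk protein of the large subunit, was the most abundant gene at 16556, 15887 and 17316 TPM.

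The genes that follow are the 20 most abundant outside ribosomal protein genes, which were taken by their symbols. Eef1a1, the elongation factor that brings tRNA to the ribosome, was at 12276, 12731 and 11070 TPM (rank 2). Tmsb4x, the actin monomer-binding peptide thymosin beta 4, was at 8860, 8732 and 9037 TPM (rank 6). Ccl5, a chemokine stored by memory CD8 T cells (chromosome 11, 83525778 to 83530518), was at 8911, 8618 and 8882 TPM (rank 8). An effector chemokine was thus as abundant as the main actin-sequestering peptide and varied by only 1.83% (CV) between libraries. B2m, the light chain of MHC class I, was at 7702 ± 85.8 TPM (SD, n = 3), and the heavy chains H2-K1 and H2-D1 were at 6097 ± 486 and 3758 ± 646 TPM (SD, n = 3). Nkg7, a membrane protein of cytotoxic granules (chromosome 7, 43437073 to 43438249), was at 6788, 6884 and 6415 TPM (rank 21). Cd52, a short glycosylphosphatidylinositol-anchored glycoprotein of lymphocytes, was at 5879, 5828 and 7526 TPM, with replicate 3 standing above the others. The remaining places among the top 20 went to Gm9846, Gnb2l1 (a ribosomal scaffold now named Rack1), Tpt1, Ly6c2, Actb, the long noncoding RNA AW112010, Crip1, Eef1b2, Actg1, Sh3bgrl3, Myl6 and Cd8b1, with means between 2317 and 8580 TPM.

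**Figure D2:**
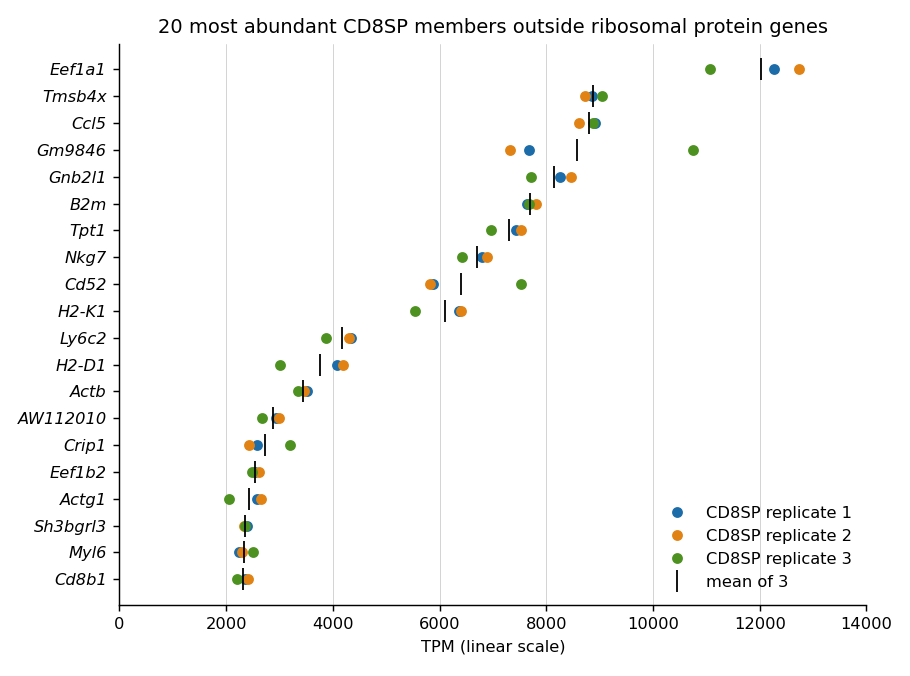
TPM on a linear scale for the 20 most abundant CD8SP members outside ribosomal protein genes and pseudogenes, with a point per replicate and a bar at the mean of 3. Most genes have their points close together; Gm9846 lies highest in replicate 3, at 10745 TPM, against 7670 and 7325 TPM in replicates 1 and 2.

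Several of the abundant rows are near-identical copies of other genes, so the split of their TPM between copies is uncertain. Gm9846, now named Rps27rt, is a ribosomal protein gene that its symbol in the table does not show, so it is not counted in the ribosomal share and places above. It is 100% identical to Rps27 over the compared stretch, and Rps27 itself stood at 87.6, 93.6 and 148 TPM. Rpl26 was at 12.3, 10.8 and 12.6 TPM, while its processed pseudogene Gm15772, 99.5% identical, was at 4525, 4606 and 5476 TPM. Oaz1, an inhibitor of polyamine synthesis, had 37.4, 53.4 and 54.9 TPM beside 1696, 1666 and 1323 TPM for Oaz1-ps, 99.7% identical to it. In the Rpl26 and Oaz1 pairs the pseudogene row carried nearly all of the pair's TPM. The ubiquitin gene Ubb was at 1085, 1102 and 1962 TPM and its pseudogene Gm1821 at 2305, 2343 and 612 TPM. Their order turned in replicate 3, while the sum of both moved less, at 3390, 3444 and 2574 TPM.

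The microRNA gene Mir682 (chr13:75645046-75645141, plus strand, GRCm38.p6) was listed at 1685, 1527 and 2256 TPM, rank 95 of all rows, in libraries made from polyadenylated RNA. Its hairpin is shown because 95 of its 96 bases are those of the coding sequence of Rpl37a, a large-subunit ribosomal protein gene on chromosome 1, from base 151 to base 246 of 279. The capital letter marks the single base that differs, C48T, counted from 1 at the 5′ end of the hairpin with the hairpin's base first; in the mature microRNA the capitals mark the seed, bases 2 to 8. The microRNA sequences are from RefSeq and the Rpl37a stretch is from GENCODE M21.
Mir682 hairpin: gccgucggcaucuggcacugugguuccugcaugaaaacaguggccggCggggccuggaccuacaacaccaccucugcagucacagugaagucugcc
Rpl37a coding stretch: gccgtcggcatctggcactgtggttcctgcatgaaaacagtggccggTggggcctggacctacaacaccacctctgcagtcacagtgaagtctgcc
mmu-miR-682 mature: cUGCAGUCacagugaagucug
Rpl37a itself was at 1609, 1549 and 2171 TPM, close to the Mir682 row in every library. A read from the shared stretch cannot be told apart except at that base, so the Mir682 row is not read as a level of the microRNA.

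Of 264 surface protein genes in the table, 207 were members, 59 of them at 100 TPM or more in every library, and the list summed to 63497 ± 1981 TPM (SD, n = 3). The 10 most abundant were B2m, Cd52, H2-K1, Ly6c2, H2-D1, Cd8b1, Ptprcap, Ly6e, Ly6a and Ms4a4b. Ly6c2, which encodes the Ly6C antigen of memory CD8 T cells and monocytes (chromosome 15, 75108158 to 75111970), was at 4343, 4303 and 3862 TPM in CD8SP libraries and at 172, 96.0 and 124 TPM in CD4SP libraries. That difference was 5.02 on the log2(TPM + 1) scale (SE 0.193), and the libraries of the populations did not overlap. Ly6c2 was chosen as a marker on these same data, so this difference and its call below are a description. Its neighbour Ly6c1, 98.3% identical over 595 nt of transcript, was at 62.3, 61.1 and 71.3 TPM, so the 2 rows lay far apart although reads could be shared between them. Ptprcap, a partner of CD45, was at 1978 ± 341 TPM (SD, n = 3). Ly6e, of the Ly6 family, was at 1834 ± 116 TPM, Ly6a, the stem cell antigen Sca-1, at 1310 ± 25.6 TPM, and Ms4a4b, a tetraspanner of T cells, at 1242 ± 33.0 TPM (SD, n = 3 each).

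The 250 bases before the RefSeq start sites of Ly6c2 (chr15:75111972-75112221, minus strand) and Ly6c1 (chr15:75048838-75049087, minus strand) are shown because these neighbours with near-identical transcripts differed so widely in level. Capitals mark the letters TGTGGT or their reverse complement ACCACA, the core of the RUNX motif; the T-box core AGGTGT, or ACACCT on the other strand, was marked too but is in neither window.
Ly6c2: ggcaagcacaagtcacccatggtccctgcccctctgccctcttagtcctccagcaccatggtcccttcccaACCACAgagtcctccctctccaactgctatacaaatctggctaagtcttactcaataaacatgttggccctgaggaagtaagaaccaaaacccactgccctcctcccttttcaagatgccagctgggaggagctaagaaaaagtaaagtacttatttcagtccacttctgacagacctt
Ly6c1: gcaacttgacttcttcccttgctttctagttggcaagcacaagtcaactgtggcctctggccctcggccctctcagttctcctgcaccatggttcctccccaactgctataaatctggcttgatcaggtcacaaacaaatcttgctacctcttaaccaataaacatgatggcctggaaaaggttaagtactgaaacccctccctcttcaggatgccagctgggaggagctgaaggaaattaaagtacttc
Aligned end to end, the windows shared 164 of 284 alignment columns (57.7%), of which 68 were gaps. The match in Ly6c2 is a description of letters and not a binding site.

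The T cell receptor complex and its proximal kinases and adaptors were among the more abundant surface and signalling genes. Lck, the kinase that CD8 carries to the receptor, was at 1788, 1784 and 1352 TPM, Lat, the membrane adaptor, at 1226, 1246 and 1058 TPM, and Cd3d at 1123, 1112 and 1160 TPM. Cd3g was at 769 ± 48.3 TPM and Cd247, the zeta chain, at 329 ± 11.7 TPM (SD, n = 3 each). Cd3e was lower, at 39.1, 34.6 and 67.5 TPM. All 19 receptor complex and signalling genes in the table were members, 13 of them at 100 TPM or more in every library, with a median CV of 6.28%.

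The secreted proteins of this population were dominated by a few effector genes. Of 98 secreted protein genes, 53 were members, and Ccl5 alone took 43.3% of their summed 20314 ± 83.5 TPM (SD, n = 3), the next 2 genes bringing the share to 59.8%. After Ccl5 came Ctsw, a cysteine protease of cytotoxic lymphocytes, at 1743, 1752 and 1569 TPM. Lgals1, a galectin, was at 1539, 1568 and 1871 TPM. Gzma, the granule serine protease granzyme A (chromosome 13, 113093825 to 113100981), was at 1471, 1497 and 1773 TPM and ranked 110th of all rows. The next of the 10 were Srgn, the proteoglycan that packs granule proteins, at 1131 TPM, then Mif, Lgals3, Cst7, Gzmb and Cst3 between 335 and 791 TPM. Chemokine genes below them were Ccl4 at 278, 254 and 272 TPM, Xcl1 at 136, 143 and 67.8 TPM and Ccl3 at 48.6, 35.1 and 41.3 TPM, all ligands that draw immune cells to activated CD8 T cells. Xcl1 was lowest in replicate 3.

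Il4, Il5, Il13, Il17f, Il21, Il22, Il9, Il3 and Csf2 were among 26 secreted protein genes listed at 0 in every CD8SP library, and Il2, the T cell growth factor, was at 3.45, 3.37 and 1.02 TPM. Ifng, the main cytokine of CD8 T cells, stood at 83.3, 83.4 and 78.2 TPM and Tnf at 6.34, 4.91 and 5.62 TPM. Tgfb1 was also listed at 0 in the CD8SP libraries; a listed 0 can be a failed estimate and is not read as absence.

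Transcription factors lay far below these effector genes. Of 241 factor genes in the table, 181 were members, only 11 were at 100 TPM or more in every library, and the list summed to 5691 ± 339 TPM (SD, n = 3), less than Nkg7 alone. The most abundant were Atf4, the integrated stress response factor, at 281, 273 and 264 TPM, Klf2, which keeps naive and recirculating T cells quiescent, at 257, 266 and 232 TPM, and Irf1, an interferon-response factor, at 269, 277 and 186 TPM. Sp110, Id2, Tcf7, Junb, Batf, Irf3 and Tsc22d3 completed the first 10, between 112 and 230 TPM. Id2, which favours effector and memory CD8 cells, was at 192, 206 and 247 TPM. Tcf7, the TCF-1 gene of naive and stem-like memory cells, was at 194, 213 and 185 TPM, so levels of the 2 lay side by side. Replicate 3 was the highest for Id2 and the lowest for Tcf7.

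Among lineage and fate factors, Runx3, the CD8 lineage factor, was at 66.0, 71.0 and 51.8 TPM. Eomes, a T-box factor of memory CD8 and NK cells (chromosome 9), was at 51.4, 55.4 and 49.9 TPM, and Tbx21, the T-bet gene, at 9.997, 9.11 and 12.4 TPM, every Eomes value lying above every Tbx21 value. Prdm1, the Blimp-1 gene of terminal effectors, was at 3.67, 3.95 and 3.59 TPM, and Zeb2, another terminal effector factor, did not reach 1 TPM in any library. Zbtb7b, the ThPOK gene of the CD4 lineage, was at 2.16, 1.71 and 3.29 TPM. Runx1, a cassette gene, was at 3.90, 4.15 and 3.23 TPM, and Hoxa9, the other, was below the member threshold at 0.797, 0.436 and 0.445 TPM; the table does not separate cassette from endogenous transcripts.

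The make-up of the population held naive, memory and cytotoxic genes together. Of the naive and quiescence list all 19 genes in the table were members, with a sum of 2109 ± 154 TPM (SD, n = 3). The memory and effector list had 28 members of 30 genes and a sum of 16653 ± 288 TPM, and the cytotoxic granule list 24 members of 28 genes and a sum of 13790 ± 304 TPM (SD, n = 3 each). The sums of the latter 2 rested on single genes, as Ccl5 took 52.9% of the memory and effector sum and Nkg7 took 48.6% of the cytotoxic sum. The median gene was at 62.7 TPM in the naive list, 53.3 TPM in the memory list and 58.1 TPM in the cytotoxic list. By the median gene the lists therefore lay close together, and by the sum they did not.

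Naive and recirculation genes led by Il7r were well expressed. Il7r, the IL-7 receptor chain of naive and long-lived memory cells, was at 316, 342 and 271 TPM. Ccr7, the chemokine receptor that guides cells into lymph nodes, was at 189, 191 and 172 TPM. Replicate 3 was the lowest for both genes. Cd27 was at 268, 265 and 231 TPM, Bcl2, the survival factor, at 218, 236 and 191 TPM, and S1pr1, the receptor for exit from lymphoid tissue, at 69.9, 71.3 and 74.9 TPM. Lower members were Lef1, the partner of TCF-1, at 4.01, 10.8 and 14.0 TPM, and Bach2, a repressor of effector genes, at 3.49, 3.07 and 3.83 TPM. Satb1, a chromatin organiser, was at 18.1, 53.8 and 16.0 TPM, with replicate 2 far above the others.

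Memory and effector genes covered a wide range. Below Ccl5, Ly6c2 and Ly6a came the chemokine receptors Cxcr3, at 516, 512 and 428 TPM, and Cxcr6, at 413, 451 and 429 TPM, which guide effector and tissue cells. Il2rb, the receptor chain for IL-15, was at 114, 117 and 106 TPM. Cd44, the hyaluronan receptor used to tell memory from naive cells, was at 52.9, 47.6 and 51.0 TPM. Il7r and Ccr7 were thus higher than Cd44 in each library on the TPM scale, although whether the genes were in the same cells cannot be told from bulk RNA. Itgae, the CD103 gene of resident memory cells, was at 79.9, 82.2 and 66.4 TPM, Klrg1, a receptor of short-lived effectors, at 28.3, 20.5 and 20.9 TPM, and Cx3cr1, a fractalkine receptor of effector cells, at 5.07, 5.38 and 4.36 TPM. Zeb2 and S1pr5 were the 2 genes of the list below the threshold.

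Granule and killing genes were led by Nkg7, Ctsw, Gzma and Srgn. Gzmb, granzyme B, was at 513, 520 and 404 TPM and Gzmk, granzyme K, at 269, 281 and 258 TPM, so Gzma exceeded Gzmb and Gzmb exceeded Gzmk in every library. Gzmm was at 49.2, 55.2 and 73.0 TPM and Gzmc at 5.68, 5.57 and 2.19 TPM. Gzmd, Gzme and Gzmg were listed at 0 in all 3 libraries, and Gzmf reached 1.002 TPM in replicate 2 alone, being listed at 0 elsewhere. Prf1, the pore-forming perforin (chromosome 10), was at 57.3, 62.3 and 51.7 TPM, well below the leading granzymes. Fasl, the death ligand, was at 132, 52.2 and 123 TPM, with replicate 2 apart. Lamp1, a lysosomal membrane protein, was at 115 ± 5.27 TPM, and the granule release genes Stxbp2, Unc13d and Rab27a were at 80.5 ± 3.02, 26.2 ± 2.52 and 11.0 ± 1.66 TPM (SD, n = 3 each).

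**Figure D3:**
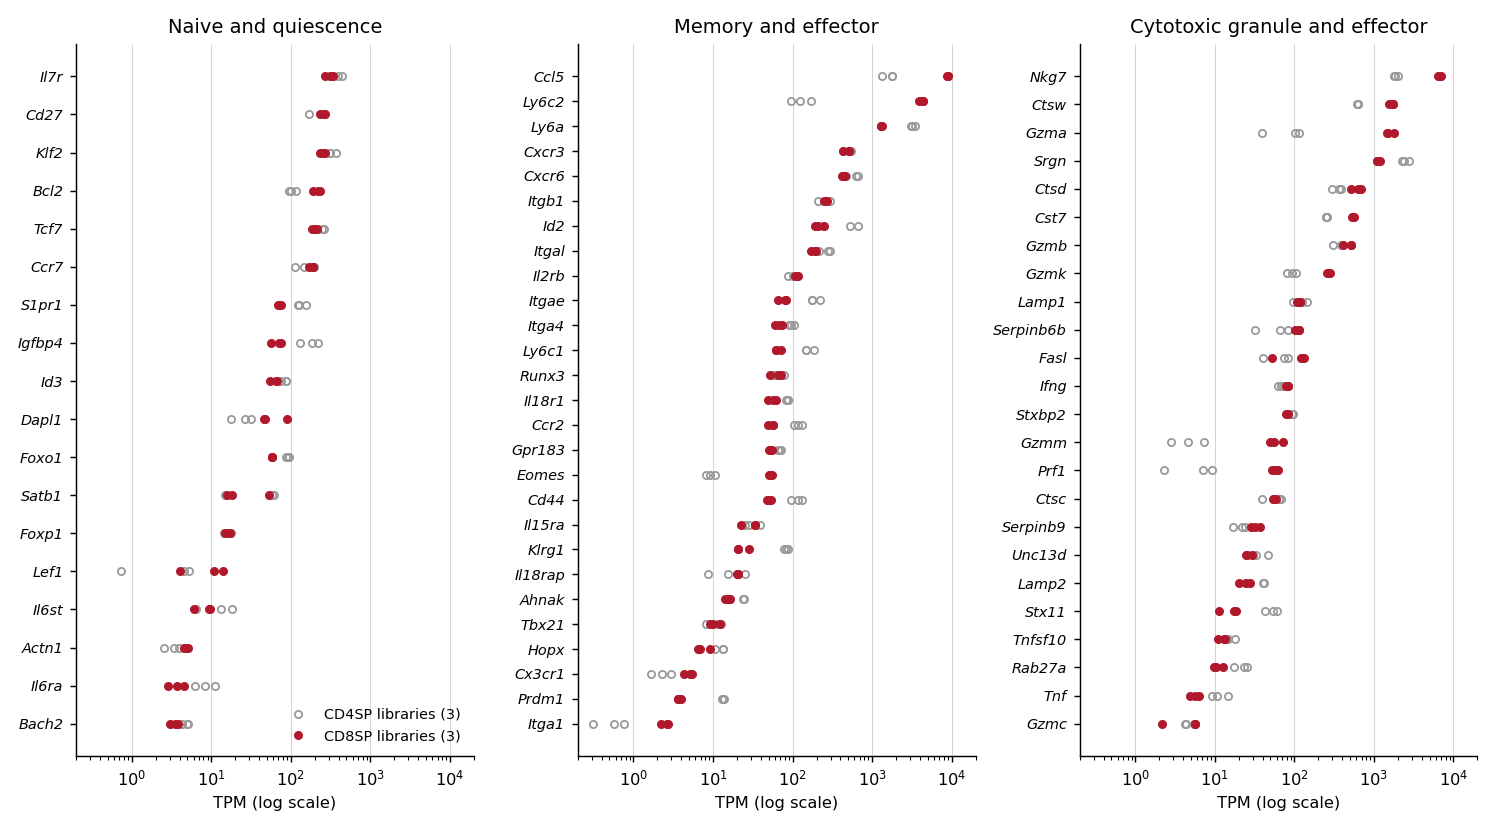
TPM on a log scale for members of the naive, memory and cytotoxic lists, with filled points for the 3 CD8SP libraries and open points for the 3 CD4SP libraries. Il7r lies between 271 and 342 TPM, Nkg7 at 6415 TPM or more and Ccl5 at 8618 TPM or more, and Gzma, Ly6c2, Eomes, Prf1 and Gzmm stand clear of the CD4SP points.

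The windows of 250 bases before the RefSeq start sites of Gzma (chr13:113100982-113101231, minus strand), Gzmb (chr14:56262335-56262584, minus strand) and Prf1 (chr10:61297586-61297835, plus strand) are shown because these killing genes hold the RUNX core. Capitals mark TGTGGT or ACCACA, and the T-box core AGGTGT or ACACCT.
Gzma: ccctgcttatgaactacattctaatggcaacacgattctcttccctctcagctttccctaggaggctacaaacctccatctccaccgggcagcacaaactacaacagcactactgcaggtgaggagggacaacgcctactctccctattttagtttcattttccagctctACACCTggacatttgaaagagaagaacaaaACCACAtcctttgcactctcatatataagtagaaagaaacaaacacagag
Gzmb: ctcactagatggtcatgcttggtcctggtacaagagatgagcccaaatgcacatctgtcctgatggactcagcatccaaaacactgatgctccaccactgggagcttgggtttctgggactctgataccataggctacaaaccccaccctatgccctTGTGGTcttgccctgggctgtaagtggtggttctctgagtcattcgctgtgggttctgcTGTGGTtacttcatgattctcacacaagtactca
Prf1: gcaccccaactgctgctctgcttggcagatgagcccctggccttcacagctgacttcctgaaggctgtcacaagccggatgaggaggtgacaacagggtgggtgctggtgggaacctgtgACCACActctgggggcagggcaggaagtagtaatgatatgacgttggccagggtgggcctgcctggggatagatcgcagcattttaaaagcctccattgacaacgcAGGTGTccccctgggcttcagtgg
Gzma holds 1 match to each core, Gzmb holds 2 to the RUNX core and none to the T-box core, and Prf1 holds 1 to each. Of the 22 cytotoxic members with a window, 9 (40.9%) held the RUNX core and 6 (27.3%) the T-box core. The same letters were in 11.1% and 9.43% of the windows of all 7531 members with an entry, and in 14.15% and 12.04% of all 27025 windows of the reference table. In other lists the RUNX and T-box shares were 40% and 0% of 15 NK receptor members, 28.6% and 0% of 21 memory members, 7.14% and 28.6% of 14 receptor complex members, and 0% and 6.25% of 16 naive members. These shares are descriptions of small lists, were not tested, and say nothing of binding.

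Windows of members were richer in CpG than those of other rows. The median ratio of observed to expected CpG was 0.761 in members and 0.303 in rows that were not members, with median GC contents of 60% and 51.2%. The cytotoxic members had a median ratio of 0.378, the memory members 0.302 and the NK receptor members 0.219, lower than the 0.650 of the naive list and the 0.846 of ribosomal protein members.

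Killer cell receptors formed a further layer. Of 28 NK receptor genes, 20 were members, with a sum of 2069 ± 159 TPM (SD, n = 3), of which 58.8% was Hcst, the DAP10 adaptor of NKG2D, at 1148, 1129 and 1371 TPM. Klrd1, the CD94 chain, was at 439, 411 and 476 TPM, and its partners Klrc1 (NKG2A) and Klrc2 (NKG2C) at 37.6, 45.8 and 42.4 TPM and at 7.07, 7.69 and 11.0 TPM. Klrk1, NKG2D itself, was at 29.7, 22.6 and 54.2 TPM, highest in replicate 3. Crtam, an adhesion receptor of activated CD8 cells, was at 87.0, 91.7 and 81.4 TPM and Cd160 at 99.5, 105 and 61.1 TPM. Ly49 genes were low, with Klra9 at 5.56, 5.25 and 15.9 TPM, Klra5, Klra6 and Klra7 at 2.77 to 9.24 TPM in single libraries, and Klra4 and Klra8 listed at 0. These are members of a family with similar sequences, so the split among them is uncertain. The NK cell markers Ncr1 and Itga2 were listed at 0 in all 3 libraries, and the NK1.1 gene Klrb1c was at 7.49, 9.14 and 5.22 TPM.

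All 14 inhibitory receptor genes in the table were members and summed to only 670 ± 57.0 TPM (SD, n = 3). Ctla4 led at 144, 150 and 124 TPM. Pdcd1, the PD-1 gene, was at 76.2, 82.5 and 87.0 TPM, Tigit at 67.7, 72.0 and 75.6 TPM, Lag3 at 40.2, 38.4 and 33.0 TPM, and Havcr2, the TIM-3 gene, at 18.5, 16.6 and 11.96 TPM. Cd5, at 110, 124 and 94.95 TPM, and Cd160, at 99.5, 105 and 61.1 TPM, lay between Ctla4 and Pdcd1 by their means, and the Cd160 values spanned those of Pdcd1 and Tigit. Tox, a factor of chronically stimulated cells, was at 29.3, 24.9 and 25.6 TPM.

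All 25 cell cycle genes of the list were members, with a sum of 2162 ± 130 TPM (SD, n = 3). Pcna, the replication clamp, was at 421, 435 and 424 TPM, Birc5 (survivin) at 150, 142 and 139 TPM, and Mki67, the Ki-67 gene, at 17.5, 19.3 and 19.4 TPM. Immediate-early genes, which follow recent stimulation or handling, were led by the phosphatase gene Dusp2 at 462, 480 and 473 TPM. Fos was at 61.8, 63.2 and 50.1 TPM, the activation marker Cd69 at 151, 152 and 172 TPM and Nr4a1 (Nur77) at 7.48, 6.09 and 6.26 TPM. Egr3 and Nr4a3 were listed at 0 in all 3 libraries.

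**Figure D4:**
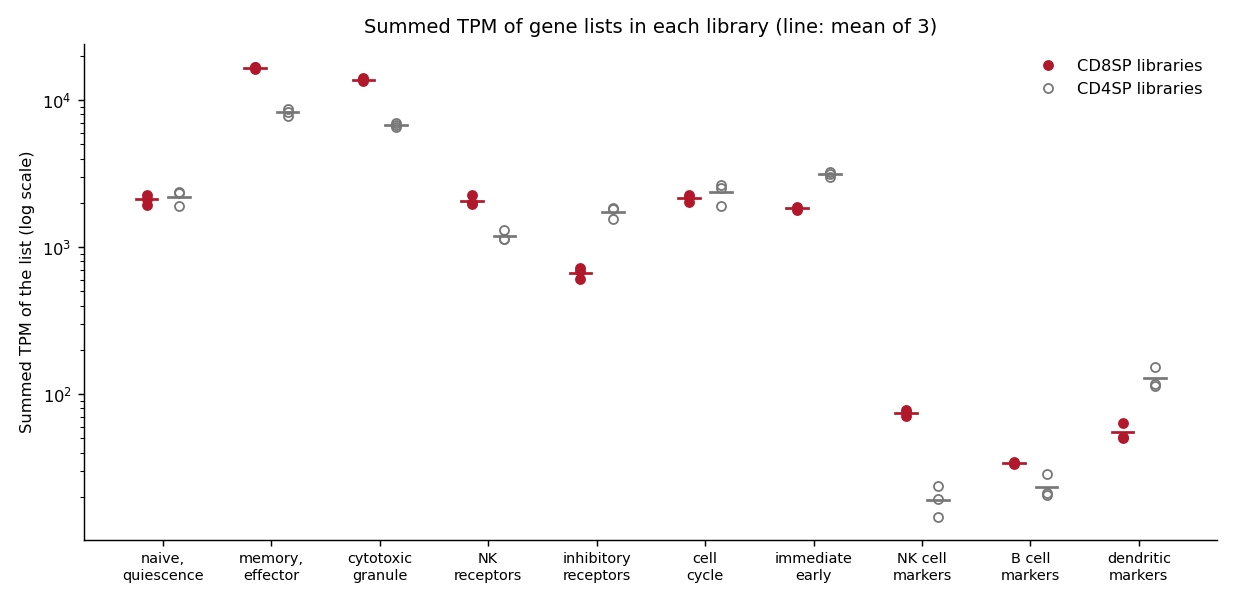
Summed TPM on a log scale of 10 gene lists in each of the 3 CD8SP libraries (filled) and the 3 CD4SP libraries (open), with a line at each mean of 3. The memory and cytotoxic sums of the CD8SP libraries, at 16653 and 13790 TPM on average, lie above all CD4SP libraries, and the naive sum of 2109 TPM lies among them.

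Where the CD8SP profile stood apart was asked against the CD4SP libraries with limma on log2(TPM + 1). Of 10476 genes tested, 1019 (9.73%) passed an adjusted p under 0.05 with a difference over 2-fold, 189 of them (1.8%) higher and 830 (7.92%) lower in CD8SP libraries. The count of higher genes was 111 without CD8SP replicate 1, and 116 without CD8SP replicate 2 or with replicates 1 and 2 averaged. The median difference over all tested genes was -0.28, so values below are read relative to it. With median-of-ratios rescaling that median was -0.01 and the calls were 300 higher and 486 lower, and with ribosomal protein genes removed they were 258 and 676. The share of calls that were higher rose from 18.5% to 38.2% with the rescaling. The ribosomal protein share and the population cannot be told apart in these libraries. Every CD8SP member passes the filter on low values by its CD8SP libraries, so counts of members called higher are a description. Of the calls, 39 higher genes had no CD4SP library at 1 TPM or more and 155 lower genes no CD8SP library, and such genes were tested through the group where they are high and had to differ.

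In the cytotoxic list 7 of 24 tested genes were higher, Nkg7, Ctsw, Gzma, Cst7, Gzmk, Gzmm and Prf1, and 2 were lower, Srgn and Stx11, a syntaxin of granule release. Gzma was chosen as a marker on these same data, so its call is a description. It differed by 4.33 (log2, SE 0.346), from 39.8, 101 and 116 TPM in CD4SP libraries. Prf1, at 9.20, 2.28 and 7.08 TPM there, differed by 3.16 (SE 0.378, limma adjusted p = 0.00106). Gzmb, by contrast, had values of 413, 384 and 306 TPM among the CD4SP libraries, a difference of 0.38 that did not pass (limma adjusted p = 0.107). The median of the list was 0.33, against -0.28 over all genes tested. Without CD4SP replicate 3 the lower count was 4, and Srgn lost its call with median-of-ratios rescaling or with ribosomal protein genes removed.

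In the memory and effector list, leaving Itga1 aside, 4 of 27 genes were higher (among them Ccl5, Ly6c2 and Eomes) and 7 were lower (Ly6a, Itgae, Ly6c1, Ccr2, Cd44, Klrg1 and Prdm1), with a median of -0.40 over all 28. Ccl5 differed by 2.44 (log2, SE 0.128, limma adjusted p = 1.41e-05) and Eomes by 2.37 (SE 0.161, limma adjusted p = 5.52e-05), each with 3 of 3 CD8SP libraries above all CD4SP libraries. Under median-of-ratios rescaling Ly6a, Ly6c1, Ccr2 and Cd44 lost their calls, leaving 3 lower. Itga1, at 2.73, 2.21 and 2.67 TPM in CD8SP and 0.577, 0.309 and 0.758 TPM in CD4SP libraries, passed the filter through the CD8SP libraries alone and is given by its values only. Without CD8SP replicate 3 the higher count was 3. In the naive list 2 of 19 genes were higher, Bcl2 and Dapl1, and 2 lower, Igfbp4 and Il6ra, with a median of -0.32. Bcl2 (1.03 on the log2 scale) was not called without CD4SP replicate 1 or without CD8SP replicate 2, Dapl1 without CD4SP replicate 1, CD4SP replicate 3 or CD8SP replicate 3, and the naive counts were 1 and 1 without CD4SP replicate 1 or CD8SP replicate 2, while the lower count was also 1 without CD4SP replicate 3 or either of CD8SP replicates 1 and 3. Il6ra (-1.01 on the log2 scale) lost its call in 9 of 14 alternatives, both scalings among them, and with either scaling the naive counts were 3 higher and 1 lower. Il7r, Tcf7 and Ccr7 did not pass (limma adjusted p = 0.124, 0.117 and 0.274).

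Among NK receptors Klra9, Klrc2, Klra5, Klra6 and Klra7 were listed at 0 in every CD4SP library and passed the filter through the CD8SP libraries alone, so they are given by their CD8SP values only. Of the other 15 genes, 7 were higher (Klrc1, Klrd1, Klrb1c, Klre1, Crtam, Cd244 and Cd160), of which Klrd1 differed by 2.41 (log2, SE 0.110, limma adjusted p = 6.43e-06) and Crtam by 3.48 (SE 0.201, limma adjusted p = 2.41e-05), and Klrg1 was lower. The higher count was 6 without CD8SP replicate 1 and 7 without CD8SP replicate 2 or 3, over the same 15 genes. The NK cell marker list moved with these genes, and the gate did not use NK1.1. Its sums were 70.6 to 78.1 TPM in CD8SP and 14.5 to 23.6 TPM in CD4SP libraries, and, leaving Klra9 aside, 3 of 5 tested genes were higher (Klre1, Klrb1c and Cd244, all of which the NK receptor list also holds) and 0 lower. That count was 2 without CD8SP replicate 1 or 2. Tyrobp and Fcer1g, signalling adaptors of NK cells, were not called (limma adjusted p = 0.749 and 0.47), and Ncr1, Itga2, Klra4 and Klra8 were listed at 0 in the CD8SP libraries. The part of NK cells in the NK receptor and cytotoxic differences was not tested. The gamma delta list summed to 58.7 to 82.5 TPM in CD8SP and 26.3 to 38.7 TPM in CD4SP libraries, where Cd163l1 was higher by 1.21 (log2, SE 0.201, limma adjusted p = 0.00476). Among dendritic cell genes Itgax, at 18.0, 17.2 and 18.1 TPM in CD8SP libraries, was at 0.946 and 0.0821 TPM in CD4SP replicates 1 and 2 and at 0 in replicate 3; it passed the filter on low values through the CD8SP libraries alone, so no test of it is given. H2-Aa, H2-Ab1, H2-Eb1 and Cd74, which serve MHC class II presentation, were lower, the list summing to 50.5 to 63.2 TPM in CD8SP and 113 to 154 TPM in CD4SP libraries. The B cell list summed to 33.4 to 34.4 TPM in CD8SP and 20.7 to 28.5 TPM in CD4SP libraries, and 1 of 6 tested genes, Cd22, an inhibitory receptor of B cells, was called higher, a call lost without CD4SP replicate 1 or 3 or without CD8SP replicate 3. The myeloid list summed to 281 to 386 TPM in CD8SP and 510 to 571 TPM in CD4SP libraries, of which Cst3, not called, took 98.0% in the CD8SP libraries. In CD4SP libraries Lyz2 stood at 30.9, 17.1 and 18.3 TPM, and its difference was -1.68 (log2, SE 0.321, limma adjusted p = 0.00872), a call made in all 14 alternatives. The thymocyte list summed to 83.3 to 89.9 TPM in CD8SP and 94.98 to 154 TPM in CD4SP libraries. In the inhibitory list 3 of 14 were higher (Cd160, Lair1 and Cd244) and 4 lower (Ctla4, Cd5, Btla and Cd200). Cd244 lost its call without CD4SP replicate 1 or 3, without CD8SP replicate 1 or 2 and with CD8SP replicates 1 and 2 averaged, and Btla without CD8SP replicate 3, with median-of-ratios rescaling and with ribosomal protein genes removed. Ctla4 differed by -2.64 (SE 0.117, limma adjusted p = 6.38e-06).

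By adjusted p alone, limma gave 338 higher and 1845 lower of all 10476 genes tested. None of the 25 cell cycle genes was called by limma, and by adjusted p alone 0 were higher and 1 lower. None of 18 MHC class I genes was called by limma either (2 were lower without CD4SP replicate 3). By adjusted p alone, 0 of these 18 genes were higher and 6 lower. Their sums were 21671 ± 1629 TPM in CD8SP and 31182 ± 1520 TPM in CD4SP libraries (SD, n = 3 each). Of 21 immediate-early genes tested 8 were lower, among them Fos, Egr1, Nr4a1, Dusp1 and Nfkbia, and none was higher. By limma adjusted p alone, 0 were higher and 16 lower. Over all 10476 genes tested, 1.8% were called higher and 7.92% lower. The counts over the class lists were 26 higher and 57 lower of 226 surface genes, and 11 and 25 of 66 secreted protein genes. Of 202 transcription factor genes, 2 (Eomes and Pou6f1, a POU-domain factor) were higher and 42 lower. Of these calls, 4 higher and 6 lower surface genes, 9 lower secreted protein genes (Il4, Il15, Il17a, Il17f, Ebi3, Csf1, Lif, Tgfb3 and Areg) and 5 lower transcription factor genes (Bcl6, Atf3, Vdr, Usf1 and Hoxa9) were tested through the group where they are high alone and are a description. This leaves 22 higher and 51 lower surface genes, 11 and 16 secreted protein genes, and 2 and 37 transcription factor genes. Over all 10475 tested symbols, 150 higher and 675 lower calls remain when such genes are left out. For secreted genes the lower count was 14 without CD4SP replicate 1 and 16 without CD4SP replicate 2 or 3, with 55 to 57 genes tested.

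CD8SP libraries were close replicates. The median coefficient of variation (CV, the SD over the mean of 3 libraries) was 12.2% over all members, and 19.3% over the genes that met the same rule in CD4SP libraries. It fell with the level, from a median of 21.7% in 1715 members with means of 1 to 5 TPM to 7.39% in 152 members at 1000 TPM or more. Over 4525 members with a mean of at least 20 TPM, replicates 1 and 2 differed by a median of 0.0736 on the log2(TPM + 1) scale, replicates 1 and 3 by 0.195 and replicates 2 and 3 by 0.206. Without replicate 3 the median CV of members was 5.41%, so much of the spread given here rests on that library.

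**Figure D5:**
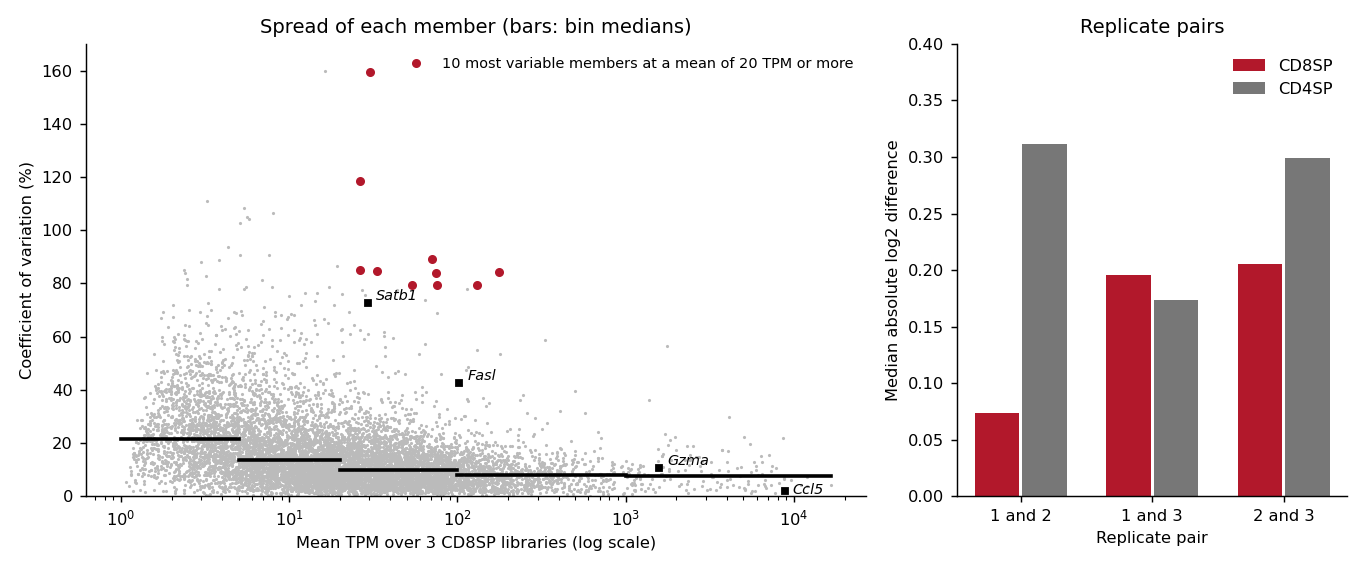
Left, CV in percent against mean TPM (log scale) for each member, with bars at the median CV of 5 level bins red points for the 10 most variable members with a mean of at least 20 TPM, and black squares for Satb1, Fasl, Gzma and Ccl5. Right, median absolute log2 difference of each replicate pair in both populations, where CD8SP replicates 1 and 2 have the lowest bar at 0.0736.

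A few genes departed from this closeness. In 88 of the 4525 members the range over the 3 libraries exceeded 2-fold, and replicate 3 was the library farthest from the middle value in 47 of these, replicate 1 in 23 and replicate 2 in 18. Replicates 1 and 2 still differed more than 4-fold in 18 genes, against 16 genes for replicates 1 and 3 and 11 for replicates 2 and 3. The most variable was Canx, calnexin, a chaperone of glycoproteins in the endoplasmic reticulum, at 86.1, 2.46 and 2.39 TPM. Grk6, a kinase that desensitises receptors, was at 269, 4.59 and 255 TPM, Lax1, an adaptor of lymphocyte signalling, at 126, 2.19 and 82.8 TPM, and Ablim1, an actin-binding protein, at 106, 2.46 and 114 TPM. In these genes a single library stood apart, and it was not the same library in each. The other 6 of the 10 were Slc35b3, Arrb2, Cyth1, Zc3hav1, Rcsd1 and Gm12191, with CVs between 79.2% and 119%. A near-identical copy was found for 1 of these 10 genes and for 15.4% of all members at that level with a sequence, and the median CV was 8.57% with a copy and 9.33% without.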

How the data were processed

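RNA of 3 CD8SP and 3 CD4SP iT cell libraries was measured by RNA-seq of polyadenylated transcripts amplified from sorted cells. The authors aligned reads to mm10 with HISAT2 and estimated TPM with StringTie, and the deposited table gives TPM for each gene and library. TPM keeps no read depth, so no counting interval can be given, and a value of 0 may be a failed estimate. Column names gave each library's group and replicate, and 27 rows with names changed to dates (13 of them members) were kept but not named. Members, gene lists and the genes named were chosen with earlier results of these data known. The markers Ly6c2 and Gzma were chosen on these same data. The genes named were the 20 most abundant members outside ribosomal protein genes and pseudogenes, the first 10 of each surface, secreted and transcription factor list, the genes of the T cell lists, markers of other cells and the 10 members of highest CV.

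Populations were compared with limma 3.58.1 in R 4.3.3 on log2(TPM + 1), for genes at 1 TPM or more in at least 3 of 6 libraries, with a trended variance, Benjamini-Hochberg adjustment and calls at an adjusted p under 0.05 and over 2-fold, two-sided. Transcript copies were found with blastn 2.17.0, at 95% identity or more over at least 200 nt or at least 80% of the gene's longest transcript. Annotation was GENCODE M21, and windows before start sites were from RefSeq GRCm38.p6. Alternatives changed the pseudocount, filter, scaling, call rule, replicate block and libraries used. The main comparison did not pair samples by replicate number. Whether equal numbers mark a shared mouse is not known from the labels. Some genes are not reported here, although they stay in the list counts and sums.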

Additional observations from a re-analysis of the deposited data

How the results depend on the processing

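With ribosomal protein genes removed, the share of CD8SP TPM rose from 0.211% to 0.323% for the naive list, from 1.67% to 2.55% for the memory and effector list, from 1.38% to 2.12% for the cytotoxic list and from 2.17% to 3.32% for the MHC class I list, since fewer genes share the total. The median CV of members, 12.2%, was 9.23% for members with a mean of at least 20 TPM, 11.2% with median-of-ratios rescaling, and 5.41% to 12.7% when each library was left out. Genes higher and lower in CD8SP libraries numbered 300 and 486 with median-of-ratios rescaling, 338 and 1845 by adjusted p alone, and 111 to 203 and 566 to 845 when each library was left out; averaging CD8SP replicates 1 and 2 gave 116 higher. The cause of these shifts was not tested. Members of the CD8SP population stayed within 1.5 times the 9528 reported, from 7373 at 5 TPM to 10088 in at least 2 of 3 libraries. For 175 called list genes, 2183 of 2339 values under the alternatives kept the call, 156 lost it and 0 reversed. In all 14 alternatives 108 genes were tested and kept the call. Others kept it wherever they were tested but were not tested in some alternatives. Removal of mitochondrially encoded genes was not run because they are not analysed here.

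A fit with a replicate block called 189 genes higher and 808 lower, and 959 of the 1019 called genes were shared. Deviations of libraries with the same number correlated at 0.0515, -0.0168 and 0.0887 across genes. These are deviations from means of 3 libraries, so they cannot decide whether equal numbers mark a shared mouse. CD8SP replicates 1 and 3 correlated best with the CD4SP library of the same number, and CD8SP replicate 2 with CD4SP replicate 1 (0.0671).

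Depth is unknown, and 3 libraries per population limit the precision of every value.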
